A study of Bombyx mori with 4 samples.

Results

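R2Bm and SART1 are long interspersed elements (LINEs) of the silkworm that insert at fixed sites, R2Bm into ribosomal DNA and SART1 into telomeric repeats. Both were taken by name from a table of total RNA sequencing of BmN4 cells, and they make up 2 of the 259 LINEs in it, of 1716 curated transposons and of 18596 sequences in all. BmN4 is a line of cultured ovary-derived cells that carry the piRNA pathway of germ cells. The cells had been electroporated with siRNA against luciferase, which has no target in them (the control, Luc KD), or against the mRNA of Siwi (Siwi KD), and each condition had 2 libraries. The authors merged the libraries of a condition before values were computed. There is thus 1 value per sequence and condition, differences between the conditions could not be checked against replicates, and p-values are not given. RNA was taken from whole cultures, so that more RNA per cell and more cells that carry the RNA cannot be told apart. The same cell line, culture medium and electroporation protocol are described for all siRNAs. Cell number, siRNA amount and incubation time are given only as ranges, and whether they matched between the conditions is not stated. The level of Siwi mRNA, and the markers of ovarian germ cells, could not be read, since 0 of the 16880 gene model identifiers matched the gene names at hand.

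LINEs move by copying their RNA into DNA at the site of insertion, a process first worked out for the R2 element of this species. R2 has no promoter of its own and is transcribed as a part of ribosomal RNA, from which its RNA is then cut out. R2 encodes an endonuclease that resembles restriction enzymes and cuts the gene of the large ribosomal RNA. SART1 belongs to the R1 family, whose members use a different type of endonuclease and include R1Bm, which inserts into the same ribosomal gene as R2Bm, and the TRAS elements, which insert into telomeric repeats as SART1 does. Siwi is a PIWI protein that, guided by piRNAs, cleaves transposon RNA in the cytoplasm. RNA of a site-specific LINE is therefore a candidate for cleavage in these cells. Comparing its level between Luc KD and Siwi KD addresses whether that RNA accumulates when Siwi is depleted.

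Sense reads were counted on each sequence and given as raw counts and as RPKM, reads per kilobase of sequence scaled to the genome-mapped reads. The counted reads amounted to 77350240 for Luc KD and to 84961588 for Siwi KD. LINEs received 3547598 of them in Luc KD but 5559214 in Siwi KD, or 4.59% and 6.54%. All counts in the table were even, so that reads appear to have been counted in pairs, and pairs were taken as the unit of counting error. PCR copies and reads shared by similar sequences are not independent molecules, and the intervals cover counting error only. The read counts of R2Bm and SART1 were so large that the counting error of their own levels was small. What limits the comparison is the spread between libraries, which cannot be seen in merged values.

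R2Bm (4372 nt) was the most abundant LINE in both conditions. Its reads numbered 2307042 in Luc KD, against 3934076 in Siwi KD, corresponding to 528 and 900 reads per nucleotide of the element. Its level was 4317 RPKM in Luc KD, against 6934 RPKM in Siwi KD. Of all genome-mapped reads, R2Bm took 1.89% in Luc KD, compared with 3.03% in Siwi KD. Ribosomal RNA had been depleted using mammalian probes, and how this acted on R2Bm RNA still joined to ribosomal RNA was not tested.

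SART1 (6684 nt) followed as the next LINE. Its reads numbered 844450 in Luc KD, against 1113100 in Siwi KD, or 126 and 167 reads per nucleotide. Its level was 1034 RPKM in Luc KD, against 1283 RPKM in Siwi KD. SART1 took 0.691% of genome-mapped reads in Luc KD, compared with 0.858% in Siwi KD. Both elements are long among all LINEs listed, with 28 of the 259 longer than R2Bm and 7 longer than SART1. Of the 25 LINEs above 10 RPKM in either condition, 9 were longer than R2Bm and 6 longer than SART1.

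The distance from these elements to the remaining LINEs was large. R1-3_BM, the LINE after SART1, had 234 and 309 RPKM in the respective condition, and SART1 was 4.41-fold higher than it in Luc KD and 4.16-fold in Siwi KD. Next came R1Bm with 85.0 and 98.0 RPKM, and L1Bm with 78.8 and 56.7 RPKM. The summed level of the 257 other LINEs was 944 RPKM in Luc KD, against 1218 RPKM in Siwi KD. R2Bm alone was 4.57-fold above that sum in Luc KD and 5.69-fold above it in Siwi KD, and SART1 alone 1.10-fold and 1.05-fold. Of the 257, 115 had no read in either condition, and only 23 exceeded 10 RPKM in either condition, the level above which sequences are called expressed here. The median of these 23 was 18.8 and 24.7 RPKM in the respective condition, against 18.6 and 17.3 RPKM for the expressed protein-coding genes.

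**Figure D1:**
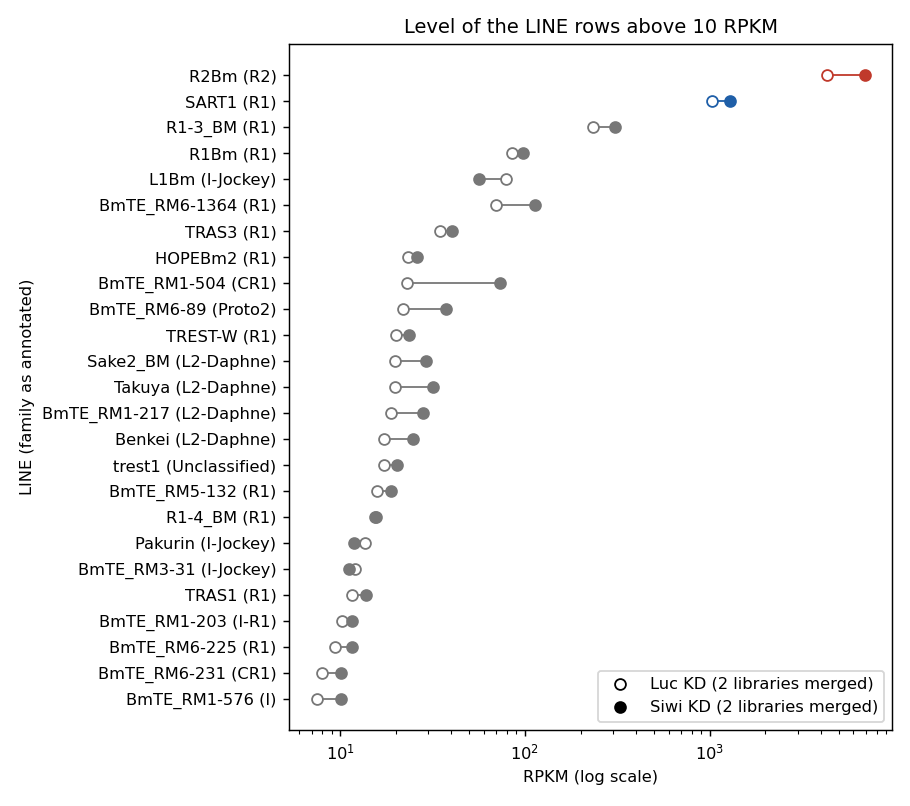
RPKM on a log scale (horizontal) of the 25 LINEs above 10 RPKM in either condition (vertical, with the annotated family), with Luc KD as open and Siwi KD as filled circles, each from 2 merged libraries. R2Bm (red, 4317 and 6934 RPKM) and SART1 (blue, 1034 and 1283 RPKM) lie to the right of all other LINEs, the next of which is R1-3_BM with 234 and 309 RPKM.

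Among the 4296 sequences annotated as transposons, R2Bm had rank 3 by RPKM and SART1 rank 10, and these ranks were the same in both conditions. Above R2Bm were an unclassified curated transposon of 9536 nt and the gene model KWMTBOMO04923.mrna1 of 2906 nt. The 6 transposons between R2Bm and SART1 were gene models annotated as transposons. Counting only curated transposons, R2Bm and SART1 had ranks 2 and 3 in both conditions. By reads without division by length, R2Bm had rank 2 in Luc KD and rank 3 in Siwi KD, and SART1 had ranks 5 and 6. Compared with all 18596 sequences, protein-coding genes included, R2Bm moved from rank 4 in Luc KD to rank 3 in Siwi KD by RPKM, whereas SART1 moved from rank 47 to rank 32. R2Bm was 232-fold above the median expressed protein-coding gene in Luc KD and 400.4-fold above it in Siwi KD, and SART1 55.5-fold and 74.1-fold.

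R2Bm and SART1 together held most LINE reads. R2Bm took 65.0% of them in Luc KD (95% exact binomial interval 64.96% to 65.10%) and 70.8% in Siwi KD (70.71% to 70.82%). The share of SART1 was 23.8% in Luc KD (23.74% to 23.87%) and 20.0% in Siwi KD (19.98% to 20.07%). The other 257 LINEs held 11.2% and 9.21%. Thus, the share of R2Bm among LINE reads was larger in Siwi KD, and those of SART1 and of the other LINEs were smaller, although all 3 had a higher RPKM there. Of all reads on transposons, R2Bm held 4.86% (Luc KD) and 7.07% (Siwi KD), whereas SART1 held 1.78% and 2.00%. By summed RPKM, which weighs the longer SART1 less, SART1 held 16.4% of the LINE sum in Luc KD and 13.6% in Siwi KD. Its part of the RPKM summed over all transposons was 1.49% in Luc KD, against 1.43% with Siwi depleted. That of R2Bm was 6.24%, against 7.71%. Among transposons, the share of SART1 was thus larger in Siwi KD by reads but smaller by summed RPKM, whereas that of R2Bm was larger by both. The transposon of 9536 nt alone held 31735320 of the 47446354 transposon reads in Luc KD. In Siwi KD it held 30317096 of 55610712. The shares of transposon reads therefore also depend on that sequence, and shares without it were not computed.

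Without Siwi, the level of R2Bm was 1.61-fold that of the control (95% counting interval 1.602 to 1.610). Its log2 fold change (FC), computed from RPKM + 1, was 0.68 with a counting error of 0.0017. SART1 was 1.24-fold higher in Siwi KD (1.236 to 1.246), with a log2 FC of 0.31 and a counting error of 0.0029. Neither passed a log2 FC of 1, which 3.63% of the 3006 sequences above 10 RPKM and 17.0% of the 389 transposons among them did. A higher level in Siwi KD, which both elements had, was found for 38.0% of the 3006 sequences and for 85.6% of the 389 transposons, whereas 62.0% and 14.4% were lower. These shares depend in part on the limit of 10 RPKM, which could be met in either condition. Sequences that met it only in Siwi KD were higher by this choice, and those that met it only in Luc KD were lower. For both elements to be higher was the usual direction among transposons selected in this way.

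In absolute terms, R2Bm was higher in Siwi KD by 2616 RPKM and SART1 by 249.6 RPKM. The LINEs together had 6295 RPKM in Luc KD, against 9435 RPKM in Siwi KD. Of this difference of 3140 RPKM, R2Bm made up 83.3% and SART1 7.95%. The sum of all LINEs was 1.50-fold higher in Siwi KD, and without R2Bm it was 1.26-fold higher. R2Bm made up 12.6% and SART1 1.20% of the net increase over all transposons.

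The 23 other LINEs above 10 RPKM had a median log2 FC of 0.24, with quartiles of 0.18 and 0.51. Of these, 19 (82.6%) were higher in Siwi KD and 4 (17.4%) were lower, and 1 (4.35%) had a log2 FC above 1. BmTE_RM6-225, BmTE_RM6-231 and BmTE_RM1-576 exceeded 10 RPKM in Siwi KD only, so their direction was fixed by that limit. The median was 0.35 for the 389 transposons and -0.13 for the 2617 protein-coding genes above 10 RPKM. R2Bm exceeded the median of the other LINEs by 0.44 on the log2 scale, and SART1 by 0.07. A larger log2 FC than that of R2Bm was found for 2 of the 23 LINEs, and a larger one than that of SART1 for 9. Without a pseudo-count, which weighs on the less abundant LINEs, these numbers were 4 and 11. Against the 387 other expressed transposons, 105 changed more than R2Bm and 206 more than SART1, which puts R2Bm above 72.9% and SART1 above 46.8% of them. R2Bm was thus in the upper part of the LINEs and of the transposons, and SART1 near the middle of both.

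The largest log2 FC of the expressed LINEs, 1.62, belonged to BmTE_RM1-504, a CR1 element of 888 nt with 23.0 RPKM from 2494 reads in Luc KD, against 72.9 RPKM from 8400 reads in Siwi KD. With the pseudo-count of 1, directly above R2Bm was BmTE_RM6-89, a Proto2 element of 2349 nt with 22.0 RPKM in Luc KD, 37.2 RPKM in Siwi KD and a log2 FC of 0.73. Directly below was BmTE_RM6-1364, a sequence of 948 nt of the R1 family with 69.9 and 113 RPKM and a log2 FC of 0.68. The ratio between the conditions was 1.69 for BmTE_RM6-89 (95% counting interval 1.62 to 1.77) and 1.61 for BmTE_RM6-1364 (1.55 to 1.68). The order of R2Bm and BmTE_RM6-1364 could therefore not be told even at the level of counting error. SART1 stood between BmTE_RM1-576, an I element of 2288 nt with a log2 FC of 0.39 (7.45 and 10.1 RPKM), and BmTE_RM6-231, a CR1 element of 767 nt with one of 0.29 (8.02 and 10.1 RPKM). Their ratios of 1.35 (1.25 to 1.46) and 1.25 (1.10 to 1.44) had wide intervals, of which the latter covered the ratio of SART1 and the former began just above it. The lowest log2 FC, -0.47, was that of L1Bm, an I-Jockey element of 2303 nt.

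**Figure D2:**
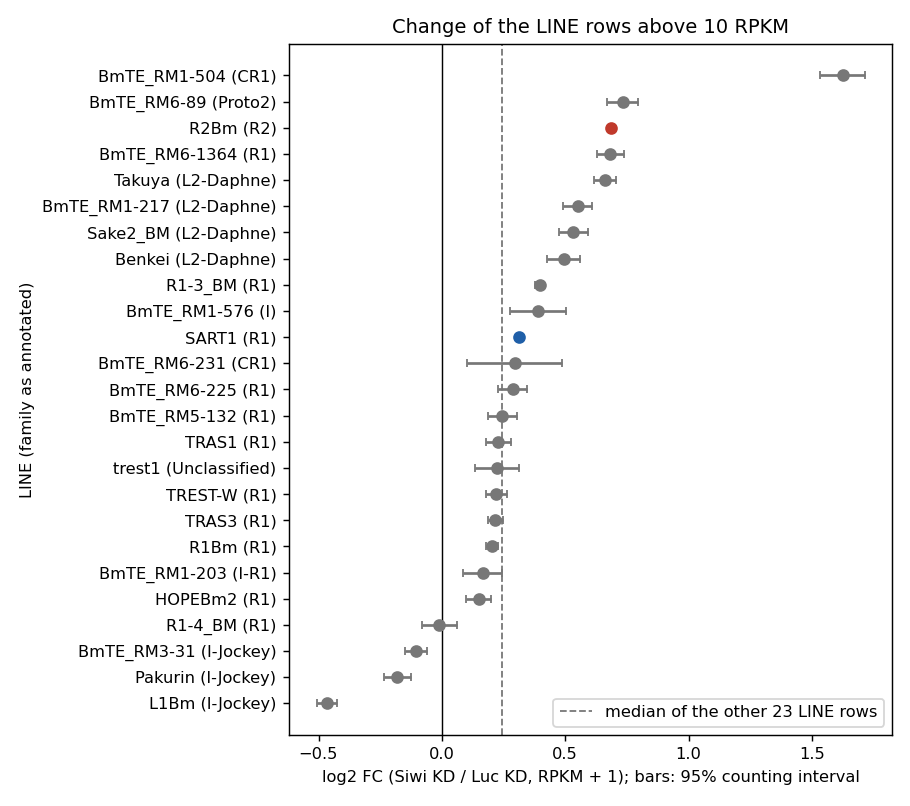
Log2 FC between Siwi KD and Luc KD (horizontal) of the 25 LINEs above 10 RPKM (vertical, with the annotated family). Bars are 95% counting intervals from a normal approximation for the ratio without a pseudo-count, drawn around the log2 FC of RPKM + 1. They differ from the exact intervals of the ratios given in the text. The dashed line is the median of the other 23 LINEs (0.24). R2Bm (red, 0.68) is in position 3 and SART1 (blue, 0.31) in position 11, and L1Bm is lowest with -0.47.

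The 8 other expressed LINEs longer than R2Bm had a median log2 FC of 0.22 and a highest one of 0.66, which was that of Takuya (5161 nt, 19.8 and 31.9 RPKM). The ratio of Takuya without a pseudo-count was 1.61, and its 95% counting interval of 1.56 to 1.66 held that of R2Bm. Below 10 RPKM, Kagayaki (5276 nt, 746 reads in Luc KD but 2310 with Siwi depleted) had a larger log2 FC of 1.02. Over the 23 other LINEs, the rank correlation of log2 FC with length was -0.47 and that with the mean level was 0.26, given as a description over sequences measured in the same merged libraries. Of these LINEs, 2 were above 100 RPKM in Siwi KD and 1 in Luc KD, so the comparison at the level of R2Bm and SART1 has few points.

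LINEs with names starting with R1Bm, R2Bm, TRAS or SART were listed as site-specific. These were 12, comprising R1Bm, R2Bm, SART1, SARTBm3 and 8 TRAS sequences. The labels do not give target sites, and other R1-family sequences, such as R1-3_BM and R1-4_BM, were not on this list. Besides R2Bm and SART1, only R1Bm, TRAS1 and TRAS3 were above 10 RPKM. R1Bm (5139 nt) had 85.0 RPKM from 53380 reads in Luc KD, against 98.0 RPKM from 65368 reads in Siwi KD, with a log2 FC of 0.20. TRAS3 (8005 nt) had 34.6 and 40.3 RPKM and a log2 FC of 0.22. TRAS1 (7850 nt) had 11.7 and 13.8 RPKM and a log2 FC of 0.23. The change of these 3 elements was thus smaller than that of SART1, and they were within 0.03 of each other on the log2 scale.

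The remaining members of this list had low levels. TRAS4 (1960 nt) had 2.60 RPKM (Luc KD) and 2.23 RPKM (Siwi KD), a ratio of 0.857 whose counting interval reached from 0.727 to 1.01. TRAS5 (1970 nt) had 0.781 and 1.27 RPKM, a ratio of 1.62 (1.25 to 2.12). SARTBm3 (5585 nt), a relative of SART1 by name, had 0.372 and 0.624 RPKM from 254 and 452 reads, a ratio of 1.68 (1.34 to 2.10). The ratio of SART1, 1.24, lay above that of TRAS4 and below those of TRAS5 and SARTBm3. TRAS6 had 0.223 and 0.250 RPKM. TRASW_partial and TRASZ_partial had no read in either condition, which allows up to 0.317 and 0.321 RPKM in Luc KD (3 read pairs), since these sequences are only 155 and 153 nt long. TRASY_partial had 0 reads in Luc KD but 2 in Siwi KD. The high level of SART1 was therefore not shared by the other listed elements of telomeric repeats, and that of R2Bm was not shared by R1Bm of the same ribosomal gene.

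Ratios between elements within a condition do not depend on how the libraries are scaled. R2Bm was 4.18-fold above SART1 in Luc KD (95% counting interval 4.16 to 4.19) and 5.40-fold above it in Siwi KD (5.39 to 5.42). The ratio was thus 1.29-fold larger in Siwi KD (1.288 to 1.300). R2Bm was 50.8-fold above R1Bm in Luc KD (50.2 to 51.4) and 70.7-fold in Siwi KD (70.0 to 71.5), a ratio that was 1.39-fold larger. SART1 was 29.9-fold above TRAS3 in Luc KD (29.5 to 30.4) and 31.8-fold in Siwi KD (31.4 to 32.3), a 1.06-fold larger ratio. Its ratio to TRAS1 was 88.7 in Luc KD (86.4 to 91.1) but 92.8 in Siwi KD (90.6 to 95.0), and was 1.05-fold larger with an interval of 1.01 to 1.08. The distance of SART1 to the expressed telomeric LINEs TRAS1 and TRAS3 thus differed little between the conditions, whereas that of R2Bm to SART1 and to R1Bm was larger in Siwi KD. Whether these changes of ratio exceed the spread between libraries was not tested.

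R2Bm was the only sequence annotated as family R2. The nearest families by annotation, R2-R4, R2-Hero and Dong-R4, held 8 sequences, none of which reached 10 RPKM. The highest was R4-1_BM (2640 nt), whose level was 2.71 RPKM with 876 reads in Luc KD, against 3.43 RPKM with 1174 reads in Siwi KD, with a log2 FC of 0.25. Dong (4134 nt) had 1.54 and 1.96 RPKM and a log2 FC of 0.22. The R1 family, to which SART1 belongs, held 24 sequences, of which 11 were above 10 RPKM. The RPKM of all 24 summed to 1570 (Luc KD) and 1972 (Siwi KD), and SART1 made up most of both sums. For the other 10 expressed R1 sequences, the median log2 FC was 0.22 with quartiles of 0.21 and 0.28, and 9 of the 10 were higher in Siwi KD. Of these, BmTE_RM6-225 exceeded 10 RPKM in Siwi KD only. Higher in Siwi KD were also 85.6% of the 389 transposons and 38.0% of the 3006 sequences above 10 RPKM. R1-3_BM (2864 nt, log2 FC 0.40) and BmTE_RM6-1364 changed more than SART1, and R1-4_BM was lowest with -0.01 (15.6 and 15.4 RPKM).

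Transposons most similar to R2Bm and SART1 were sought by the distance between points of log2 RPKM + 1 in Luc KD and Siwi KD, that is, over 2 conditions. For R2Bm, these were the gene models KWMTBOMO16745.mrna1 (2738 and 4731 RPKM, log2 FC 0.79, distance 0.86), KWMTBOMO04923.mrna1 (6457 and 11386 RPKM, log2 FC 0.82, distance 0.92) and KWMTBOMO16693.mrna1 (2116 and 3831 RPKM, log2 FC 0.86, distance 1.34). All 3 changed slightly more than R2Bm. For SART1, they were KWMTBOMO16819.mrna1 (632 and 1196 RPKM, log2 FC 0.92, distance 0.72), the SINE Bm1 (984 and 755 RPKM, log2 FC -0.38, distance 0.77) and KWMTBOMO16868.mrna1 (1299 and 2233 RPKM, log2 FC 0.78, distance 0.86). SART1 was thus between neighbours that changed more and one that changed in the opposite direction. Of the 8 other transposons above 1000 RPKM in Luc KD, 7 had a larger log2 FC than either element, and the unclassified transposon of 9536 nt was lower in Siwi KD, with -0.15. How far these sequences share reads was not tested.

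**Figure D3:**
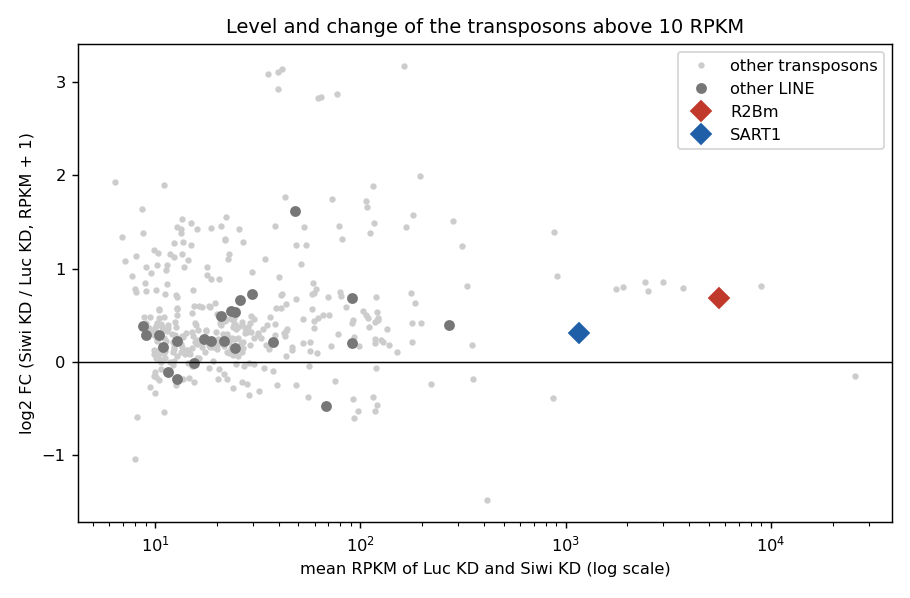
Mean RPKM of both conditions on a log scale (horizontal) against log2 FC between Siwi KD and Luc KD (vertical) for the 389 transposons above 10 RPKM, with other LINEs in dark grey. R2Bm (red, 0.68) and SART1 (blue, 0.31) lie at the high end of the level and within the range of log2 FC of the other LINEs (-0.47 to 1.62).

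Since a few sequences hold a large part of the reads, the change of both elements was also computed with other scalings. R2Bm and SART1 were higher in Siwi KD under all 6 of them. The log2 FC of R2Bm lay between 0.51 and 0.81, and that of SART1 between 0.14 and 0.44. The lowest values were obtained when the libraries were scaled by the counted reads without the transposon of 9536 nt, which held 41.0% of the counted reads of Luc KD but 35.7% of those of Siwi KD. The highest were obtained relative to the median protein-coding gene. In each case the median of the other LINEs moved along, so that R2Bm stayed 0.43 to 0.44 above it and SART1 0.06 to 0.07 above it.

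**Figure D4:**
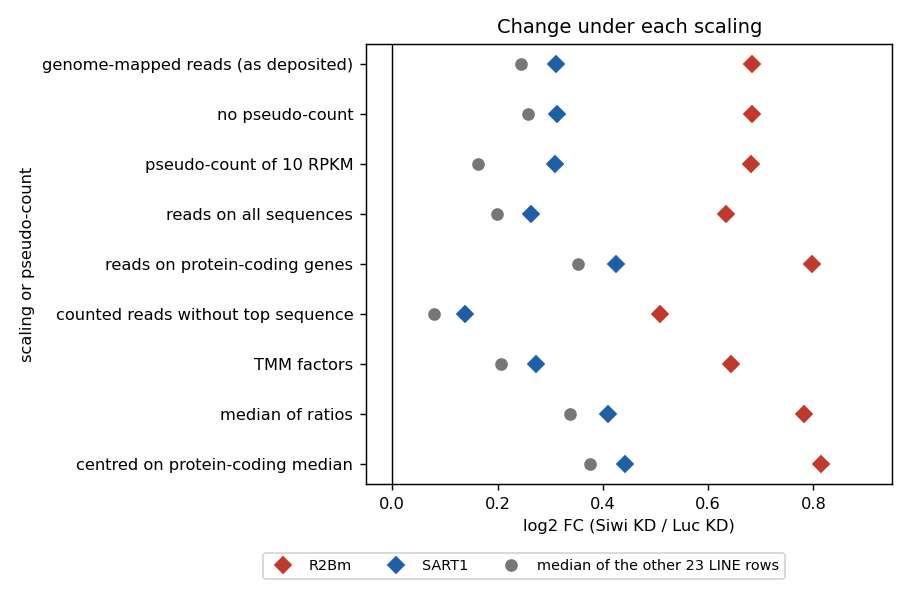
Log2 FC between Siwi KD and Luc KD (horizontal) of R2Bm (red), SART1 (blue) and the median of the other 23 LINEs above 10 RPKM (grey) for each scaling or pseudo-count (vertical). R2Bm ranges from 0.51 to 0.81 and SART1 from 0.14 to 0.44, and in every line R2Bm is highest and the median of the other LINEs lowest.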

How the data were processed

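Total RNA of BmN4 cells was sequenced in 2 libraries for Luc KD and 2 for Siwi KD. The authors cleaned the reads with Rcorrector and Trim Galore (0.6.6, per the labels), discarded reads under 36 nt, aligned them with STAR first to the genome of the silkworm and next to gene and transposon sequences in random and multiple counting modes, counted sense reads and merged the replicates. The deposited raw counts are not normalized. From them, the authors derived the deposited RPKM using sequence lengths and totals of genome-mapped reads, which come to 122229138 (Luc KD) and 129779634 (Siwi KD). The class and family follow each name in the table. Sequences and coordinates of the elements were not used here.

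Log2 FCs were computed from RPKM plus a pseudo-count of 1, and a sequence was taken as expressed if it exceeded 10 RPKM in Luc KD or Siwi KD. Exact binomial (Clopper-Pearson) intervals on read pairs were used for shares and ratios. Intervals for ratios of ratios, and the bars in the figure of log2 FCs, used the normal approximation. Alternatives covered the pseudo-count, the scaling (TMM factors from edgeR 4.0.16 among others), the LINEs included and the measure. The LINEs named were R2Bm and SART1, names starting with R1Bm, R2Bm, TRAS or SART, the 5 with the highest RPKM in Luc KD, those next to each element in log2 FC, the extremes of log2 FC and the 3 nearest transposons. Other LINEs named (Takuya, members of related families) were chosen after their values were seen. The elements, lists and alternatives were chosen with earlier results of these data known. Counts were simulated for 3006 sequences with counting error only. Of the planted changes, all set larger than a log2 FC of 1, 200 of 200 were recovered at that threshold. This does not bear on smaller changes, such as those of R2Bm and SART1, or on the spread between libraries. Scripts ran on Python 3.11.15 (scipy 1.17.1, numpy 2.4.6, pandas 2.3.3; figures with matplotlib 3.10.9).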

Additional observations from a re-analysis of the deposited data

How the results depend on the processing

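No paired analysis was possible because the replicates were merged in the table; leaving out a replicate was not run for the same reason, so nothing here bears on variation between libraries. Without a pseudo-count and with one of 10 RPKM, R2Bm (0.68 and 0.68) and SART1 (0.31 and 0.31) moved by less than counting error, and the median log2 FC of the other LINEs was 0.26 and 0.16. Log2 FCs of R2Bm, SART1 and the other LINEs were 0.63, 0.26 and 0.20 when scaled by reads on all sequences, 0.80, 0.43 and 0.35 by reads on protein-coding genes, 0.51, 0.14 and 0.080 by counted reads without the transposon of 9536 nt, 0.64, 0.27 and 0.21 with TMM factors, 0.78, 0.41 and 0.34 with the median of ratios, and 0.81, 0.44 and 0.38 when centred on protein-coding genes. The median over all expressed sequences moved from -0.09 to -0.26 without the transposon of 9536 nt and to 0.01 by protein-coding reads. Over these 6 scalings, 3 of the 25 expressed LINEs changed sign (HOPEBm2, R1-4_BM and BmTE_RM3-31). The median of the other LINEs was 0.15 with at least 100 reads, 0.094 with any read, 0.23 above 1 RPKM and 0.40 above 50 RPKM. The share of other LINEs that changed more than R2Bm was 8.70% above 10 RPKM and 4.22% to 20.0% in these sets, and for SART1 39.1% and 20.4% to 60.0%. By reads, R2Bm had rank 2 among transposons in Luc KD, and SART1 ranks 5 (Luc KD) and 6 (Siwi KD). Among curated transposons, R2Bm had rank 2 and SART1 rank 3 in either condition. By summed RPKM in place of reads, R2Bm held 68.6% (Luc KD) and 73.5% (Siwi KD) of LINEs, and SART1 16.4% and 13.6%. Depth limits the LINEs with few reads, also some above 1 RPKM such as TRAS4, and 115 had no read.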

Other observations

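Other LINE families differed in direction from R2Bm and SART1 or among themselves, given here as values with no explanation. The 4 expressed L2-Daphne elements (Takuya, BmTE_RM1-217, Sake2_BM and Benkei) were all higher in Siwi KD, with log2 FCs of 0.49 to 0.66, and all changed more than SART1. With the pseudo-count of 1 they changed less than R2Bm, but without it the ratio of Takuya was 1.61, with a 95% counting interval of 1.56 to 1.66 that held the ratio of R2Bm. The 3 expressed I-Jockey elements were lower in Siwi KD. Among the 389 transposons above 10 RPKM, 85.6% were higher in Siwi KD and 14.4% lower. L1Bm had 78.8 RPKM in Luc KD, against 56.7 RPKM in Siwi KD, Pakurin had 13.6 and 11.9 RPKM, and BmTE_RM3-31 (11358 nt) had 12.1 and 11.1 RPKM with a log2 FC of -0.11 that became 0.02 relative to the protein-coding median. Among the 83 LINEs that did not exceed 10 RPKM but had 100 reads or more, the median log2 FC was 0.10. Of these 83, 61 were higher in Siwi KD, and 3 changed more than R2Bm. The matching shares over all sequences or transposons at this level were not computed, so these counts are values only.

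BmTE_RM6-1364, a short R1-family sequence, and R2Bm had log2 FCs of 0.683 at levels of 69.9 and 4317 RPKM in Luc KD. The sequence comparison that would show whether they share reads was not analysed here.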
